A study of Sus scrofa with 6 samples.

Results

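Compact exonic circRNAs are taken here as circular RNAs that the deposited table types as exonic, that join 3 to 7 exons, and whose back-splice ends lie less than 5000 nt apart on the genome, introns included. By this rule 355 of the 2552 exonic circRNAs (13.9%) were compact, out of 4350 circRNAs in the analysed part of the authors' listing. They were measured in testis of Landrace boars, in 3 piglets at 30 days of age (Piglet-D30) and in 3 sexually mature boars at 210 days (Adult-D210), all untreated as far as the labels say, with 1 library from 1 testis of each boar. Each library was made from total RNA of whole tissue after removal of ribosomal RNA and digestion of linear RNA with RNase R, so it mixes all testicular cell types. The nearest group for comparison was the 1235 exonic circRNAs that also join 3 to 7 exons but span 5000 nt or more (wide-span circRNAs).

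An exonic circRNA forms when the spliceosome joins the end of a downstream exon back to the start of an upstream exon of the same transcript. The product has no free ends, which makes it resistant to exonucleases such as RNase R, and a sequencing read that crosses the back-splice junction is its signature. Long flanking introns, in particular those with inverted repeats that pair with each other, are known to favour back-splicing, and a single host gene often yields several circRNAs that share a splice site. The testis is among the tissues rich in circRNAs. At 30 days the seminiferous tubules of a boar hold mainly Sertoli cells and early germ cells, whereas the mature testis also holds spermatocytes and spermatids.

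The libraries had 37364412 to 49179118 mapped reads and 12701 to 33091 back-splice reads in the table. Piglet-D30 replicate 1 had the most back-splice reads and held reads of all 2552 exonic circRNAs, while the other libraries detected part of them. The table analysed here ends within a row and holds only part of the circRNAs that the authors reported. Circles of a host may thus be missing. Why every listed exonic circRNA has a read in Piglet-D30 replicate 1 was not tested. Comparisons are therefore also given without that library. When calls are given with 1 library left out, the 1341 circRNAs tested stay the same, and the fit with Piglet-D30 replicate 1 left out of the filter as well is named where it differs. None of 39 marker genes of testicular cell types (Sertoli, Leydig, germ and other cells) was host of an exonic circRNA, and 6 (GATA4, CYP17A1, STAR, KIT, ACRV1 and ACTA2) were hosts of intronic ones, so the markers could not check the labelled tissue or its cell makeup from compact circRNAs. In whole tissue, a change in the number of cells of a type and a change in RNA per cell cannot be told apart, and this holds for every comparison of the ages.

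Within the 3 to 7 exons that the rule allows, compact circRNAs were mostly at the low end. Circles of 3 exons were the main form, since 222 of the 355 (62.5%) joined 3 exons, 91 joined 4, 31 joined 5, 8 joined 6 and 3 joined 7. Among wide-span circRNAs 23.4% joined 3 exons. A limit on span leaves less room for many exons, so this difference follows in part from the rule. The span ran from 484 nt to 4969 nt with a median of 3029 nt, against a median of 13047 nt for wide-span circRNAs, a difference that the rule itself sets. The shortest was circRNA10947 of RBM5, a splicing regulator (chromosome 13, 35781164 to 35781647). At the limit, the last compact circRNAs were circRNA11649 of SENP2 at 4952 nt, circRNA10130 of ENSSSCG00000009000 at 4965 nt and circRNA11112 of SHQ1 at 4969 nt. The first beyond it were circRNA10737 of GOLGA4 at 5042 nt, circRNA10751 of ENSSSCG00000011252 at 5060 nt and circRNA10120 of FRAS1 at 5065 nt. Positions are given as in the table, counted from 1 on the assembly Sscrofa10.2.

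The flanking introns of compact circRNAs were long relative to the circles themselves. For 353 circRNAs with both introns listed, the upstream intron had a median length of 3074 nt (quartiles 1758 and 7095) and the downstream intron 2666 nt (1530 and 4758). In 246 of them (69.7%) the longer flanking intron exceeded the whole span of the circle, which was so in 36.7% of wide-span circRNAs, whose flanking introns had medians of 6694 and 5227 nt. The span enters this ratio, so the difference between the kinds follows in part from the rule. A splice site was shared less widely, in that 227 compact circRNAs (63.9%) used the same start or end as another exonic circRNA, against 81.5% of wide-span circRNAs. Exonic circRNAs of 1 or 2 exons shared a start or end in 63.0% of cases. Their longer flanking intron exceeded the span in 86.2%. No test was made of these structural shares, since circRNAs of 1 host gene are not independent.

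The exonic circRNAs listed here lay on chromosomes 7, 8, 12 and 13, and so did the compact ones. The listing ends within a row, and the authors reported circRNAs on all chromosomes, so this is not their genomic distribution. Of the compact circRNAs, 237 lay on chromosome 13, 74 on chromosome 8, 34 on chromosome 7 and 10 on chromosome 12. They were 13.2% of the exonic circRNAs on chromosomes 7 and 8, 237 of 1693 on chromosome 13 and 23.8% of the 42 on chromosome 12. The 10 on chromosome 12 carried 4185 reads, of which 3599 belonged to circRNA12278 of SLC38A10.

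Compact circRNAs carried 23677 back-splice reads, 20.7% of the exonic reads from 13.9% of the exonic circRNAs. The reads were concentrated in few circles. The most abundant one held 15.2% of them, the first 10 held 45.8%, and 13 circRNAs were enough to reach 50%. The median compact circRNA had 11 reads over the 6 libraries (quartiles 4 and 40.5), close to the 10 reads of the median wide-span circRNA, and 34 were supported by a single read. SRPBM, the back-splice reads divided by the mapped reads and by the read length of 150 nt and multiplied by 1000000000, averaged above 1 in 92 compact circRNAs and above 10 in 13.

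The most abundant compact circRNA was circRNA12278 of SLC38A10, a member of the SLC38 family of amino acid transporters (chromosome 12, 1401699 to 1403815, plus strand, 4 exons). Its SRPBM was 66.2, 17.9 and 19.96 in Piglet-D30 replicates 1 to 3 and 230.6, 128.4 and 68.4 in Adult-D210 replicates 1 to 3. The lowest adult library lay just above the highest piglet library. It made up 7.33% to 11.5% of the compact reads in piglets and 19.2% to 34.0% in adults. SLC38A10 had 1 other exonic circRNA in the table, and circRNA12278 held 99.6% of the gene's back-splice reads listed there.

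Next came circRNA1168 of PAPOLA, the polymerase that adds poly(A) tails to mRNA (chromosome 7, 124952565 to 124954675, plus strand, 3 exons). It had an SRPBM of 76.5, 57.6 and 60.3 in the piglets and 28.6, 22.3 and 28.1 in the adults, 2.46-fold higher on average in piglets. The ranges were apart, yet relative to the back-splice totals its log2 fold change was −0.78 ± 0.24 (SE) with an adjusted p of 0.0525 (edgeR), beyond the threshold of 0.05. For circRNA10905 of QRICH1, a glutamine-rich transcriptional regulator of the stress response (chromosome 13, 34916547 to 34919128, 3 exons), the values were 76.2, 41.6 and 35.6 in piglets and 39.3, 24.7 and 19.4 in adults. The groups overlapped for QRICH1 (log2 fold change −0.37 ± 0.23, adjusted p = 0.32, edgeR).

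The fourth was circRNA10986 of GNL3, or nucleostemin, a nucleolar GTPase (chromosome 13, 38024064 to 38025958, 4 exons), at 40.3, 25.4 and 24.0 in piglets and 14.8, 16.5 and 11.3 in adults (log2 fold change −0.55 ± 0.25, adjusted p = 0.19, edgeR). Virtually all back-splice reads of the gene, 99.8%, came from compact circles. CircRNA1191 of CDC42BPB, a kinase that acts downstream of CDC42, was at 25.2, 17.9 and 17.4 in piglets and at 8.13, 16.8 and 9.70 in adults. CircRNA1123 of UBR7, which belongs to the UBR-box family of ubiquitin ligases, was at 21.6, 19.9 and 12.3 in piglets and at 9.08, 11.4 and 7.92 in adults. Neither passed the test (adjusted p = 0.63 and 0.40, edgeR), although in both every adult SRPBM lay below every piglet SRPBM. SRPBM is scaled to mapped reads and the test to back-splice totals, and the choice moves the values of all circRNAs together, by an amount given with the tests. The remaining 4 of the first 10, which are circRNAs of USP4, CCNI, ENSSSCG00000011779 and GK5, passed the test and are described with it.

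**Figure D1:**
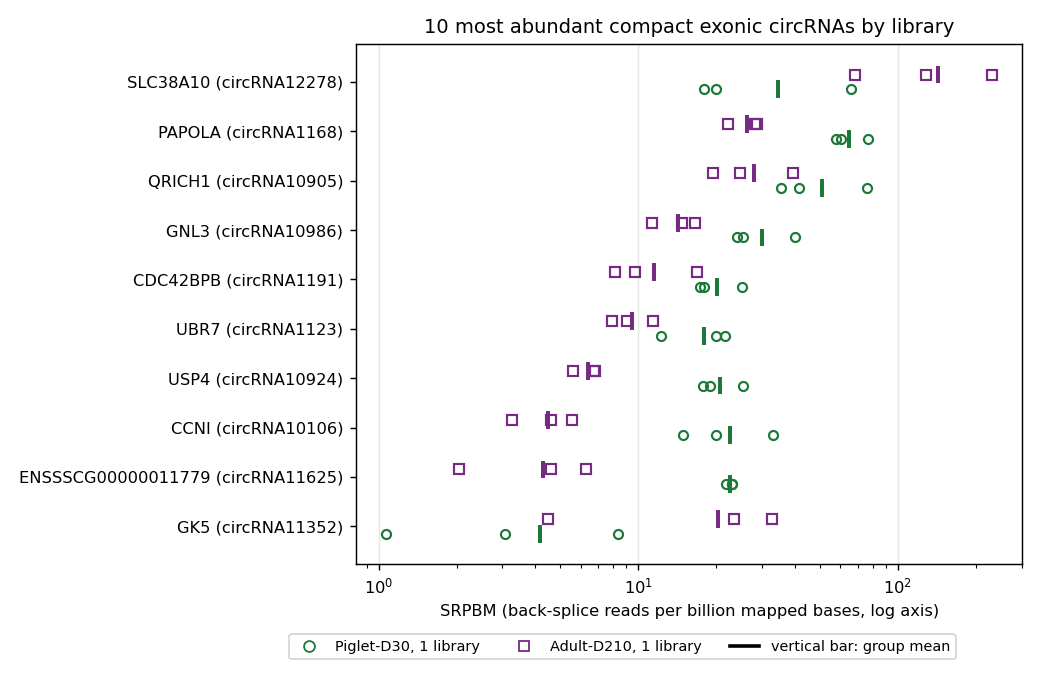
SRPBM of the 10 most abundant compact exonic circRNAs on a log axis, with 1 circle per Piglet-D30 library, 1 square per Adult-D210 library and a bar at each group mean (n = 3). The SLC38A10 circle reaches 230.6 in Adult-D210 replicate 1, the USP4, CCNI and ENSSSCG00000011779 circles lie lower in every adult library, and the GK5 circle overlaps between the ages.

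Per library, compact circRNAs had 5853, 3600 and 3412 reads in Piglet-D30 replicates 1 to 3 and 5010, 3193 and 2609 in Adult-D210 replicates 1 to 3. Scaled to depth, this was 156.6, 82.5 and 78.6 reads per 1000000 mapped reads in piglets and 101.9, 78.9 and 53.5 in adults. The groups overlapped, with 105.9 ± 44.0 (SD, n = 3) against 78.1 ± 24.2 (exact permutation test, two-sided p = 0.5). Without Piglet-D30 replicate 1, the piglet mean was 80.6 ± 2.79 (SD, n = 2) and the exact permutation p was 1.0. As a share of exonic back-splice reads, compact circRNAs took 18.5%, 21.0% and 19.4% in piglets and 22.3%, 23.6% and 21.7% in adults. Every adult share lay above every piglet share (19.6% ± 1.26 against 22.5% ± 0.958, SD, n = 3, exact permutation p = 0.1), and 0.1 is the smallest two-sided p that 3 against 3 libraries can give. The SLC38A10 circle moved with this share. Without it the shares were 17.5%, 20.5% and 18.8% in piglets and 15.9%, 18.9% and 18.3% in adults, and the groups overlapped (18.9% ± 1.46 against 17.7% ± 1.58, SD, n = 3, exact permutation p = 0.5).

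Averaged over circRNAs, compact circles were more abundant than wide-span ones in each of the 6 libraries. The mean SRPBM per circRNA was 2.94, 1.55 and 1.48 for compact circRNAs in the piglets and 1.91, 1.48 and 1.004 in the adults, against 2.33, 0.992 and 1.12 and then 1.28, 0.884 and 0.674 for wide-span circRNAs. The ratio ran from 1.26 to 1.68 (exact paired permutation test by sign flips over 6 libraries, two-sided p = 0.031, the smallest it can give). The same circRNAs are averaged in each library, so this p does not measure the spread over circRNAs or hosts. The higher mean rested on the abundant circles. The median SRPBM was higher for compact circRNAs in only 1 of 6 libraries (p = 1.0, exact), and with circRNA12278 left out the mean was higher in 5 of 6 (p = 0.063, exact). Within the 147 host genes that yielded both kinds, compact circRNAs had the higher mean in 5 of 6 libraries (p = 0.156, exact).

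Recurrence was counted over the 5 libraries other than Piglet-D30 replicate 1, because all members were seen in that library. A compact circRNA was detected by at least 1 read in 174 and 183 of 355 cases in the 2 other piglet libraries and in 171, 166 and 159 cases in the adult libraries. A single read is at the limit of detection, and a count of 0 allows a level of up to 3 reads, or 0.407 to 0.494 SRPBM in these 5 libraries. Each adult library was below each of these piglet libraries (165.3 ± 6.03, SD, n = 3, against 178.5 ± 6.36, SD, n = 2), with an exact permutation p of 0.2 that is the smallest for 2 against 3. Every listed circle had a read in a piglet library, so this count cannot compare the ages on equal terms. The exonic back-splice reads were 17150 and 17617 in these piglets and 22487, 13542 and 12018 in the adults. With at least 2 reads the libraries overlapped, at 152 and 156 in these piglets and 159, 141 and 129 in the adults (exact permutation p = 0.6). With Piglet-D30 replicate 1, whose 355 are fixed by the listing, the exact permutation p was 0.1.

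Many compact circRNAs recurred in none or in all of these libraries. None of the 5 held 83 of them (23.4%), which were therefore seen in Piglet-D30 replicate 1 alone and had at most 9 reads, and 34 of these had a single read. All 5 libraries held 84 (23.7%), and these 84 carried 83.4% of all compact reads, with at least 13 reads each. Between the extremes, 60 circRNAs were seen in 1 further library, 47 in 2, 45 in 3 and 36 in 4. For wide-span circRNAs 25.6% were in none of the 5 and 17.5% in all 5. Exonic circRNAs of 1 or 2 exons had 18.7% in none and 24.4% in all 5, so such recurrence was not particular to compact ones. A compact circRNA was detected in 48.1% ± 2.52 (SD, n = 5) of cases per library and a wide-span circRNA in 43.6% ± 4.28, higher for compact in 5 of 5 libraries (exact paired permutation test, two-sided p = 0.063, the smallest for 5 pairs). This p too is over libraries and does not measure the spread over circRNAs or hosts. Compact circRNAs with 4 exons were seen in all 5 libraries in 30.8% of cases, against 22.1% of those with 3 exons, 19.4% with 5, 12.5% of the 8 with 6 and 0 of the 3 with 7, shares that were not tested.

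**Figure D2:**
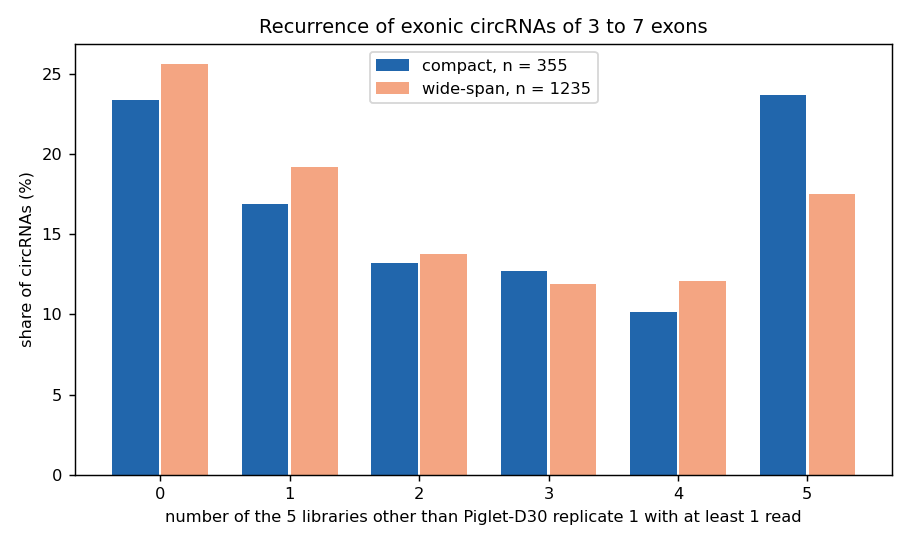
Share of the 355 compact and 1235 wide-span circRNAs of 3 to 7 exons (bars, in %) by the number of libraries, of the 5 other than Piglet-D30 replicate 1, in which at least 1 back-splice read was found. Compact circRNAs had 23.7% in all 5 libraries and wide-span circRNAs 17.5%.

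By age, and apart from Piglet-D30 replicate 1, in which every listed circle had a read, 189 compact circRNAs were seen in both ages, 45 in adults but not in the 2 other piglets and 38 in these piglets but not in adults. A circle seen in adults and in no piglet cannot occur in this listing. In all, 7 circles were in all 3 adults and in neither of the 2 other piglets, and of these circRNA10360 of SLC9B1 stood out with 112 reads, followed by circRNA11400 of HLTF with 38. The other 5 had 5 to 17 reads and came from FYCO1 (an adaptor of autophagosome transport), HLTF, TFRC (the transferrin receptor), ATP2C1 (a calcium pump of the Golgi) and NDUFB5 (a subunit of respiratory complex I). Another 6 circles were in both other piglets and in no adult. CircRNA11209 of ENSSSCG00000022633 had 2, 13 and 5 reads in the piglets, circRNA10710 of DYNC1LI1, a dynein subunit, had 3, 2 and 8, and circRNA11494 of SMC4, a condensin subunit, had 2, 4 and 4. The other 3, from MME, GART and TRIM2, had 4 to 7 reads in all. At such counts an absence is not distinguishable from a low level, and these circRNAs were listed after their values were seen.

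The 355 compact circRNAs came from 239 host genes, 36.3% of the 659 hosts of exonic circRNAs. A single compact circRNA was listed for 168 hosts, 2 for 46 hosts and 3 or more for 25. In 46 hosts the compact circRNA was the only exonic one listed. Where a host had other exonic circRNAs as well, which was so for 193 hosts, a compact circle had the most reads in 83. In the 147 hosts with both kinds, a compact circRNA led in 53 and a wide-span circRNA in 63.

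PTPN13, which encodes a large tyrosine phosphatase, had the most compact circRNAs, 8 out of 32 exonic ones. Its leader circRNA10434 (chromosome 8, 141404602 to 141409344, 5 exons) had 83, 76 and 35 reads in piglets and 17, 27 and 0 in adults. All 7 PTPN13 circles that were tested had negative log2 fold changes, from −2.24 to −0.97, and none passed (lowest adjusted p = 0.073, edgeR). Members of 1 host share exons and reads of 1 transcript, so they do not count as separate observations.

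HLTF, a helicase-like protein of DNA damage tolerance, had 6. Its leader circRNA11405 (chromosome 13, 97302620 to 97307385, 3 exons) overlapped between the ages, with 28, 27 and 33 reads in piglets and 41, 16 and 17 in adults (log2 fold change −0.01 ± 0.43). At the other end of the gene 3 circles were nested, described here after their values were seen. CircRNA11397 (97278057 to 97282277, 4 exons) had 9, 2 and 4 reads in piglets and 1, 0 and 0 in adults. It shared its start with circRNA11398, which had 5, 0 and 0 against 6, 1 and 4, and its end with circRNA11400, which had 8, 0 and 0 against 17, 8 and 5. The outer circle had a log2 fold change of −3.19 and the inner circles 1.41 and 2.19. None of the 3 passed the test in the 6 libraries (adjusted p = 0.19, 0.50 and 0.18, edgeR).

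XRN1, the main cytoplasmic 5′ to 3′ exoribonuclease, had 5 compact circles with 669 reads, 69.1% of its back-splice reads. Its leader circRNA11365 (chromosome 13, 90962314 to 90963935, 3 exons) had 87, 131 and 75 reads in piglets and 68, 31 and 84 in adults. It ended at the same base as circRNA11364, named after its values were seen, which had 29, 28 and 43 against 26, 20 and 26. The groups overlapped for both (adjusted p = 0.59 and 0.84, edgeR).

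SCAF4, which binds the C-terminal domain of RNA polymerase II, had 4 compact circles with 81.0% of its reads, led by circRNA12084 (45, 28 and 39 reads in piglets, 47, 36 and 28 in adults). All 4 were tested, with log2 fold changes from 0.29 to 0.75, and none passed (lowest adjusted p = 0.42, edgeR). FANCD2, a protein of interstrand crosslink repair, had 5 compact circles that held only 11.3% of its reads, led by circRNA11168 with 6, 5 and 2 reads against 24, 8 and 0. ATP13A3, a P-type ATPase, had 6 that were rare, with 51 reads in all, of which circRNA11698 had 10, 6 and 7 against 0, 2 and 0 (adjusted p = 0.15, edgeR). Among these 6 hosts 0 of the 23 compact circRNAs tested were called by edgeR's test of the 6 libraries or by DESeq2. The rate of calls over all tested circRNAs was 8.28%. An unadjusted p under 0.05 (edgeR) was found for 7 of the 23, against 43 of all 191 compact circRNAs tested. CircRNA11400 of HLTF was called by edgeR with Piglet-D30 replicate 1 out of filter and test, as given below.

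Whether abundance changed with maturity was asked for each circRNA with at least 10 reads over the 6 libraries. Of the 355 compact circRNAs 191 (53.8%) reached this limit, and 164 could not be tested. Counts of the whole table were compared with edgeR's quasi-likelihood test relative to back-splice totals (TMM), and a call needed an adjusted p under 0.05 and a change of at least 1 in either direction on the log2 scale. This called 14 compact circRNAs (7.33%), 8 higher and 6 lower in Adult-D210. Over all 1341 circRNAs tested the rate was 8.28%, with 3.43% higher and 4.85% lower, against 7.33% of compact circles. Wide-span circRNAs were called in 68 of 620 cases (11.0%), with 7.10% lower against 3.14% of compact circles, a difference that was not tested. An unadjusted p under 0.05 was found for 43 compact circRNAs. The median log2 fold change was −0.39 over the 191 (72 positive, 119 negative) and −0.42 over all tested circRNAs. With Piglet-D30 replicate 1 out of both filter and test, these medians were −0.11 over 151 compact circRNAs and −0.05 over all 1046 tested. An exonic circle absent from that library and high in adults cannot be listed, whereas one absent from adults can. The numbers higher and lower are therefore not on equal terms, and leaving the library out does not undo this.

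The scale of the comparison moved the balance of the calls. With mapped reads as library size in place of back-splice totals, the median over all tested circRNAs moved to −0.90, and 11 compact circRNAs were called against a rate of 5.74% in the table. Of these, 3 were higher and 8 lower. The higher share of calls was thus 57.1% relative to back-splice totals and 27.3% relative to mapped reads. Under that scale GPATCH2L, KIF15, GK5, SENP2 and CCDC57 lost their calls, whereas circRNA10551 of ANTXR2 (−1.72, adjusted p = 0.047, edgeR) and circRNA11879 of NAA50 (−1.78, adjusted p = 0.039, edgeR) gained them, the former named after its value was seen. Without Piglet-D30 replicate 1 in filter and test, 13 of 151 compact circRNAs were called, 9 higher and 4 lower, against a rate of 7.07% in the table, and 11 of them were among the 14. ITPR1, TRAK1 and CCDC57 lost their calls there, and circRNA11400 of HLTF (log2 fold change 6.39, adjusted p = 0.049, edgeR) and circRNA1045 of GALC (2.95, adjusted p = 0.015, edgeR), the latter also named after its value was seen, gained them. With counts divided by back-splice totals without TMM, 14 were called, 71.4% of them higher.

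**Figure D3:**
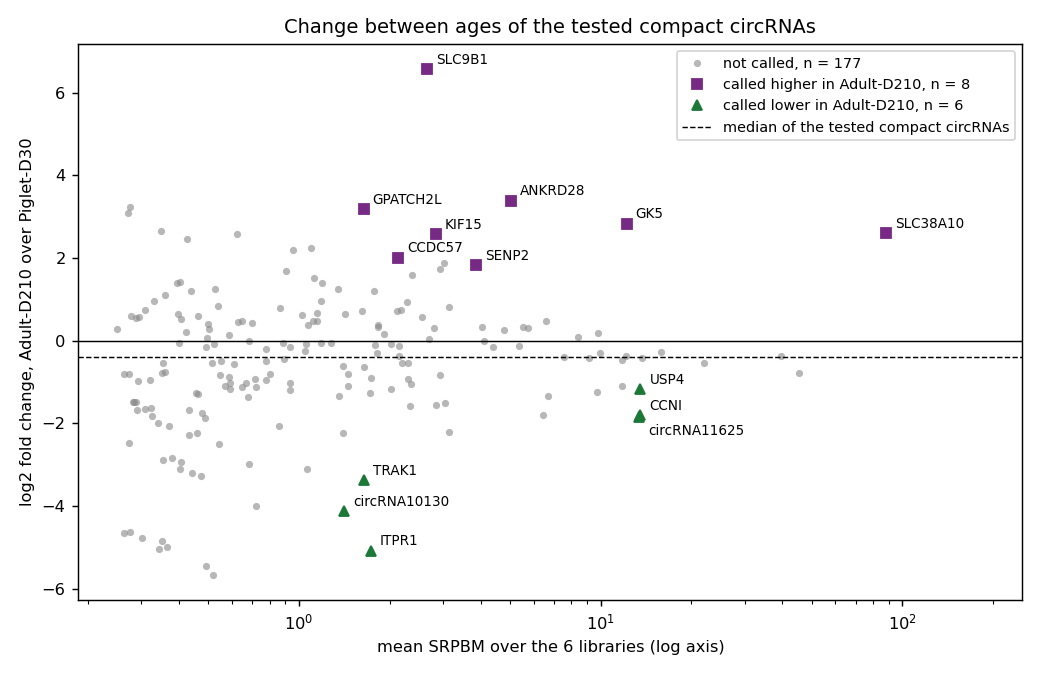
Log2 fold change of Adult-D210 over Piglet-D30 (edgeR, relative to back-splice totals) against mean SRPBM over the 6 libraries (log axis) for the 191 compact circRNAs tested. Squares mark the 8 called higher, triangles the 6 called lower and grey points the 177 not called, and the dashed line lies at the median of −0.39.

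Of the 8 circles called higher in adults, 2 came from genes of membrane transporters. CircRNA12278 of SLC38A10, described above, had 371, 117 and 130 reads in piglets and 1701, 779 and 501 in adults, a log2 fold change of 2.59 ± 0.36 (adjusted p = 0.0027, edgeR). It was called without any single library (log2 fold change 2.28 to 3.10). CircRNA10360 of SLC9B1, a sodium-hydrogen exchanger known from sperm (chromosome 8, 127091752 to 127096676, plus strand, 3 exons), had 1, 0 and 0 reads in piglets and 63, 26 and 22 in adults. Almost all its reads were thus adult. Scaled to mapped reads, the ratio of adult to piglet reads was 99.8, with a 95% counting interval of 17.5 to 3975 that covers counting error only (adjusted p = 0.0003, edgeR). It too was called without any single library.

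ANKRD28, a regulatory subunit of protein phosphatase 6, gave circRNA10618 (chromosome 13, 3109788 to 3113691, minus strand, 3 exons), with 13, 0 and 8 reads in piglets and 116, 43 and 28 in adults. The groups were apart, at a log2 fold change of 3.39 ± 0.61 (adjusted p = 0.0027, edgeR), and the call held without any single library. KIF15, a kinesin of the mitotic spindle, gave circRNA10795 (chromosome 13, 30860472 to 30862241, plus strand, 3 exons) with 3, 6 and 10 reads against 56, 22 and 21. Its log2 fold change was 2.58 ± 0.55 (adjusted p = 0.0094, edgeR), and the adjusted p rose to as much as 0.078 when Piglet-D30 replicate 1 or Adult-D210 replicate 1 was left out. With the former out of the filter too, the adjusted p was 0.036 (edgeR) and the call was kept.

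GPATCH2L gave circRNA1018 (chromosome 7, 105392983 to 105396660, plus strand, 3 exons) with 5, 0 and 3 reads in piglets and 23, 16 and 20 in adults, and the SRPBM of the adults was narrow at 2.83 ± 0.255 (SD, n = 3) against 0.451 ± 0.446. The log2 fold change was 3.18 ± 0.72 (adjusted p = 0.010, edgeR), and the call was lost without Piglet-D30 replicate 3 (adjusted p = 0.055, edgeR). GK5, of the glycerol kinase family, gave circRNA11352 (chromosome 13, 90784807 to 90789682, minus strand, 6 exons) with 47, 7 and 20 reads in piglets and 172, 199 and 33 in adults. Its SRPBM overlapped between the ages because Adult-D210 replicate 3, at 4.51, lay below Piglet-D30 replicate 1, at 8.39. It was near the threshold (2.83 ± 0.70, adjusted p = 0.049, edgeR) and with 1 library left out kept its call only without Piglet-D30 replicate 1 or without Adult-D210 replicate 3. CircRNA12275 of CCDC57, a coiled-coil protein (chromosome 12, 919711 to 922164, 4 exons), had 10, 8 and 2 reads against 25, 27 and 12 and overlapped in SRPBM (2.01 ± 0.59, adjusted p = 0.041, edgeR). With any 1 library left out it was not called (adjusted p 0.059 to 0.19, edgeR).

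SENP2, a protease that removes SUMO from proteins, gave a pair of circles that begin at the same base. CircRNA11649 (chromosome 13, 132982287 to 132987238, plus strand, 5 exons) had 14, 12 and 14 reads in piglets and 51, 35 and 30 in adults. The groups were apart, with a log2 fold change of 1.83 ± 0.42 (adjusted p = 0.011, edgeR), and the call was lost without Adult-D210 replicate 1 or replicate 2 (highest adjusted p = 0.053, edgeR). CircRNA11650 (132982287 to 132984562, 4 exons) had 45, 28 and 22 reads in piglets and 38, 30 and 21 in adults and was not called (0.25 ± 0.39, adjusted p = 0.72, edgeR). Of the reads of the pair, the longer circle held 23.7%, 30.0% and 38.9% in piglets and 57.3%, 53.9% and 58.8% in adults. The pair was chosen after its values were seen, and no test of this share was made.

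Of the circles lower in adults, circRNA10106 of CCNI, an atypical cyclin (chromosome 8, 76896146 to 76900030, minus strand, 4 exons), was the firmest. It had 185, 130 and 97 reads in piglets and 41, 28 and 24 in adults. The SRPBM was 22.6 ± 9.36 (SD, n = 3) against 4.48 ± 1.15, a log2 fold change of −1.81 ± 0.30 (adjusted p = 0.0026, edgeR), and the call held without any single library. A second CCNI circRNA, which is not compact, was called lower as well. CircRNA11625 of ENSSSCG00000011779 (chromosome 13, 131233764 to 131237882, minus strand, 3 exons) had 122, 150 and 150 reads against 15, 28 and 46, with a piglet SRPBM of 22.6 ± 0.699 (SD, n = 3), the closest agreement of piglet libraries among the first 10. The log2 fold change was −1.85 ± 0.43 (adjusted p = 0.013, edgeR), and with 1 library left out the call was kept only without Piglet-D30 replicate 1 or without Adult-D210 replicate 3 (adjusted p up to 0.088 in the others, edgeR).

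USP4, a deubiquitinase, gave circRNA10924 (chromosome 13, 35122058 to 35125451, minus strand, 4 exons), with 142, 124 and 116 reads in piglets and 50, 34 and 50 in adults. SRPBM differed 3.23-fold and did not overlap, and the log2 fold change relative to back-splice totals was −1.17 ± 0.30 (adjusted p = 0.025, edgeR). With 1 library left out, the call was kept only without Adult-D210 replicate 3 (adjusted p 0.022 to 0.13, edgeR), and it was also kept with Piglet-D30 replicate 1 out of both filter and test (adjusted p = 0.049, edgeR).

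The other 3 were rare circles that were near or at 0 in adults. CircRNA11140 of ITPR1, the receptor that releases calcium from the endoplasmic reticulum (chromosome 13, 67560357 to 67563852, plus strand, 3 exons), had 42, 11 and 7 reads in piglets and 0, 0 and 1 in adults. Scaled to mapped reads, piglet reads exceeded adult reads by a ratio of 66.8 (95% counting interval 11.5 to 2680, adjusted p = 0.016, edgeR). The call was lost without Piglet-D30 replicate 1, Adult-D210 replicate 1 or Adult-D210 replicate 2 (highest adjusted p = 0.14, edgeR).

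CircRNA10130 of ENSSSCG00000009000 (chromosome 8, 79349044 to 79354008, plus strand, 3 exons) had 21, 18 and 11 reads against 2, 0 and 0, a ratio of 27.8 (7.31 to 236.0, adjusted p = 0.016, edgeR). CircRNA10771 of TRAK1, an adaptor between mitochondria and kinesin (chromosome 13, 28570512 to 28574477, plus strand, 4 exons), had 29, 17 and 10 against 4, 0 and 0 (log2 fold change −3.38 ± 0.96, adjusted p = 0.031, edgeR). Both were absent from Adult-D210 replicates 2 and 3. With 1 library left out, the first kept its call only without Piglet-D30 replicate 3 (adjusted p up to 0.064, edgeR) and the second only without Adult-D210 replicate 1 (up to 0.14, edgeR). The first was also called with Piglet-D30 replicate 1 out of both filter and test (adjusted p = 0.049, edgeR).

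**Figure D4:**
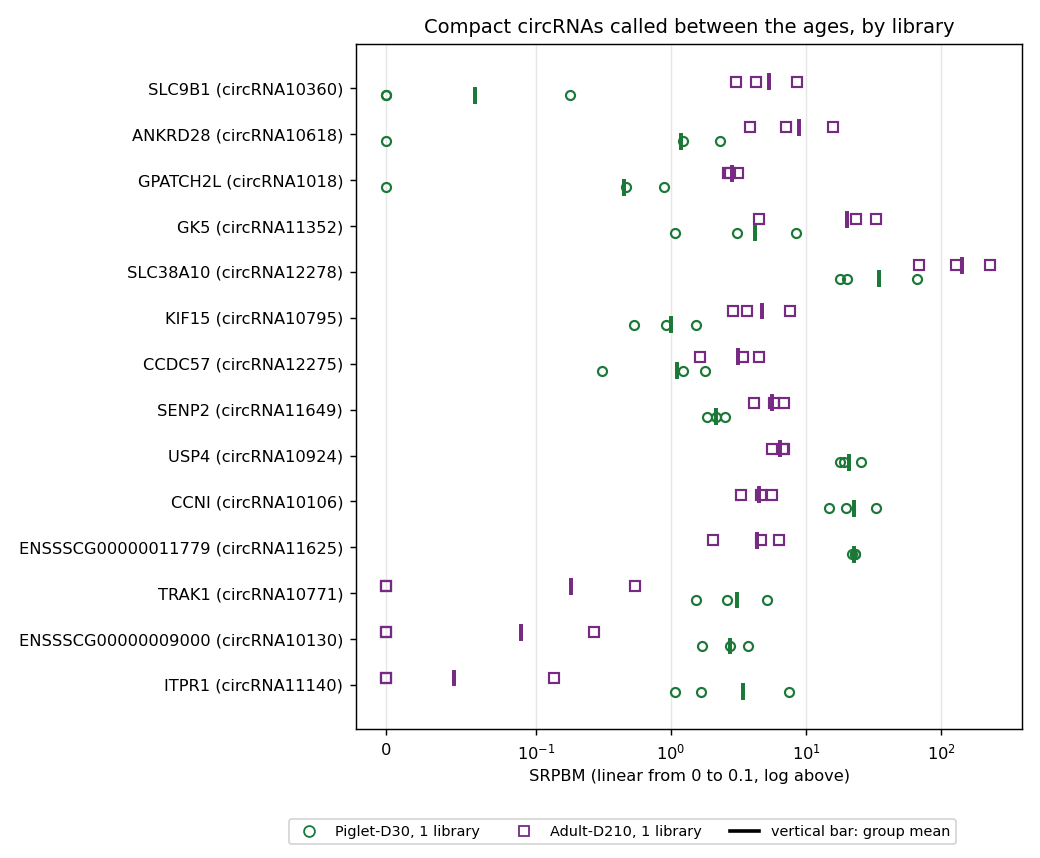
SRPBM by library of the 14 compact circRNAs called between the ages, ordered by log2 fold change, with the axis linear from 0 to 0.1 and logarithmic above, circles for Piglet-D30, squares for Adult-D210 and bars at the group means (n = 3). The groups do not overlap for 12 of the 14, the exceptions being the GK5 and CCDC57 circles. The 14 were picked by a test of the same libraries, so this separation is not a further result. Circles not called, such as those of PAPOLA, GNL3 and NAA50, did not overlap either. The share without overlap among all tested circRNAs was not counted.

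Beside the level of a circle, its share of all exonic back-splice reads of the host gene was computed, which does not depend on library size. The host totals cover only the circRNAs listed here, each with a read in Piglet-D30 replicate 1, so circles of the host that are not listed are missing from them. For SLC9B1 the share of circRNA10360 was 3.70%, 0% and 0% in piglets and 31.8%, 45.6% and 41.5% in adults. For GPATCH2L the share of circRNA1018 was 4.43%, 0% and 3.49% in piglets and 17.2%, 14.7% and 24.4% in adults, while 83 to 139 reads of its other circles were present in each piglet library. For ANKRD28 circRNA10618 had 0% to 7.08% in piglets and 15.0% to 30.1% in adults. In these 3 genes, and in GK5, SLC38A10 and SENP2, the compact circle took a larger part of the host's listed reads in every adult than in any piglet. For SLC38A10 the difference was slight, at 94.9% to 99.5% in piglets and 99.8% to 100% in adults. The gene's other circle had 2, 2 and 7 reads in piglets and 4, 1 and 0 in adults. CircRNA12275 of CCDC57, also called higher, went the other way, with 71.4% to 100% in piglets and 32.1% to 71.1% in adults, and circRNA10795 of KIF15 overlapped (16.7% to 90.9% against 70.0% to 95.7%), both on hosts with fewer than 20 reads in some libraries.

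The shares overlapped for 3 of the circles called lower, those with at least 20 host reads in every library. CircRNA10106 held 67.4% to 76.9% of CCNI reads in piglets and 57.1% to 85.4% in adults, circRNA11625 held 75.8% to 88.8% and 71.4% to 96.6% of its host, and circRNA10924 held 58.4% to 70.3% and 49.3% to 63.3% of USP4. These circRNAs were taken because they had been called, so the shares are descriptions without a test.

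**Figure D5:**
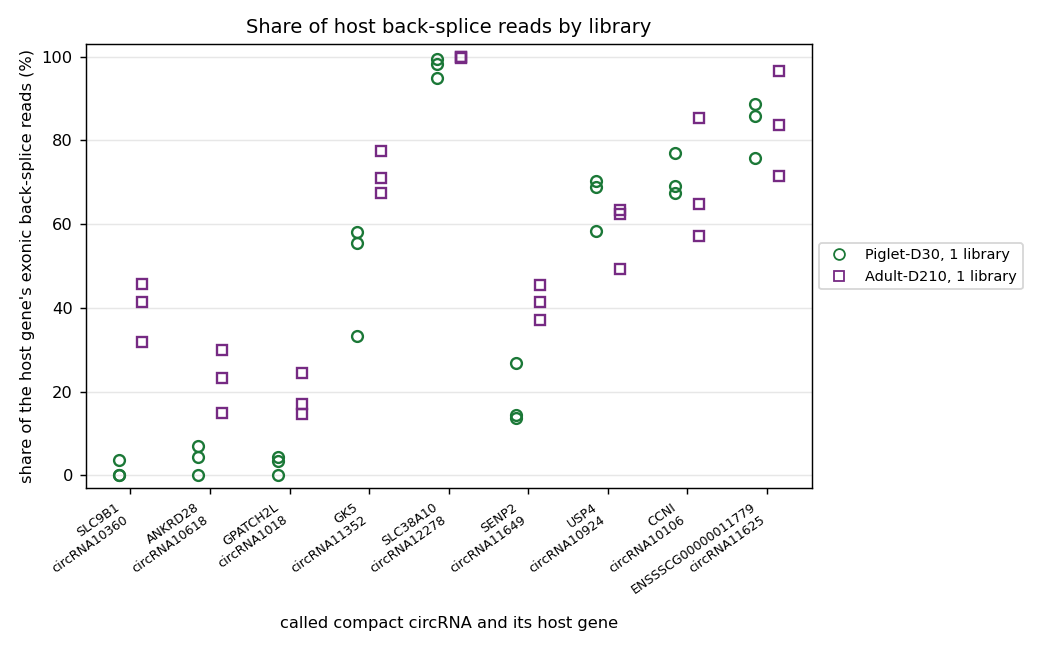
Share of the host gene's exonic back-splice reads (in %) held by each called compact circRNA, by library, for the 9 hosts with at least 20 such reads in every library. The 6 shown that were called higher, on the left, have every adult square above every piglet circle, and the 3 called lower, on the right, overlap between the ages. Of those called higher but not shown, CCDC57 went the other way and KIF15 overlapped. All were picked because they had been called, and the share without overlap among all exonic circRNAs was not counted. For SLC38A10 the gap is slight (94.9% to 99.5% in piglets, 99.8% to 100% in adults).

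The host genes were grouped by words in the gene ontology text of the deposited table into 12 lists, and 198 of the 355 compact circRNAs fell in none, 21 of them because the text was empty. Transmembrane transport held 26 compact circRNAs, of which 11 were tested and 2, the SLC38A10 and SLC9B1 circles, were called higher. Among all exonic and intronic circRNAs tested, 8 of the 74 in this list were called. Its second circle by reads, circRNA10564 of ATP2C1, had 37, 35 and 47 reads against 36, 33 and 19 (adjusted p = 0.85, edgeR). Protein ubiquitination held 39, of which 22 were tested, 1 was called higher (SENP2) and 1 lower (USP4), with a median log2 fold change of −0.73, against 8 called of 132 in the table. SENP2 acts on SUMO rather than ubiquitin, and each of the pair is a protease that removes its modifier.

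Chromatin and histone modification held 27 compact circRNAs, of which 14 were tested and 1, again of SENP2, was called higher, against 12 of 119 in the table. The list took in XRN1 through a term on histone mRNA decay. Its second leader, circRNA11879 of NAA50, an N-terminal acetyltransferase, had 93, 112 and 76 reads in piglets and 21, 27 and 43 in adults, without overlap, and missed the threshold (−1.24 ± 0.40, adjusted p = 0.067, edgeR). Cell junction and adhesion held 17, of which 12 were tested and 1, circRNA10130, was called lower, with a median of −1.19, against 16 called of 102 in the table. Its leader circRNA12267 of TBCD, a tubulin folding cofactor, had 21, 0 and 7 reads against 21, 31 and 11. RNA processing held 13, of which 9 were tested and 1, of USP4, was called lower (2 of 47 in the table), while circRNA12293 of EIF4A3, a helicase of the exon junction complex, was not called (86, 45 and 50 reads against 42, 35 and 30).

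No compact circRNA was called in the other 7 lists, which had 1 to 13 tested each (0 calls by edgeR's test of the 6 libraries or DESeq2). The rate of calls over all tested circRNAs was 8.28%. At an unadjusted p under 0.05 (edgeR) there were 5 of the 36 tested in these lists, against 43 of all 191 compact circRNAs tested. The cilium, centrosome and flagellum list had 13 tested with a median of −0.01, among them circRNA10318 of SEC24B, a coat protein of vesicle transport that entered through the word stereocilium (82, 83 and 69 reads against 59, 45 and 47), and circRNA11812 of IQCB1, a protein of the primary cilium (36, 22 and 20 against 39, 22 and 18). Meiosis, DNA repair and chromosomes had 8 tested, with the FANCD2 circles in the lead. Protein kinases had 9 tested with a median of 0.82, including circRNA11726 of PAK2 (19, 16 and 15 reads against 42, 22 and 10, adjusted p = 0.29, edgeR). Small GTPase signalling had 8 tested, with circRNA11634 of EIF2B5, a subunit of a translation initiation factor, at 20, 13 and 11 against 14, 15 and 4.

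Spermatogenesis and germ cells held 5, of which 1 was tested, circRNA10763 of WDR48, a cofactor of ubiquitin proteases (12, 0 and 7 reads against 8, 0 and 0, adjusted p = 0.66, edgeR), while a second WDR48 circle, circRNA10758, had 2 reads in all. Steroid and androgen held 2, circRNA10839 of SCAP, the escort protein of sterol sensing (25, 16 and 16 against 9, 1 and 10, adjusted p = 0.25, edgeR), and circRNA12078 of SOD1 with 2 reads. Wnt and hedgehog signalling had 2 tested, circRNA10236 of INTU with 18 reads and circRNA10268 of BBS7 with 14. No list's count was tested against the others.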

How the data were processed

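Testis RNA of 3 Piglet-D30 and 3 Adult-D210 boars, treated with RNase R, was sequenced as 150 nt stranded read pairs. The authors trimmed reads (Cutadapt), mapped them with TopHat2, and searched the rest for back-splices with TopHat-Fusion and CIRCExplorer2. For each library, the authors deposited raw back-splice counts and SRPBM, a signal scaled by mapped reads and read length. The submitters' processing notes name the assembly Sscrofa10.2. Dividing count by SRPBM gave the mapped reads of each library. The deposited table ends within a row, so the circRNAs beyond it were not analysed here, and its back-splice totals are not whole libraries.

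Compact circRNAs and host lists were chosen with earlier results of these data known. Ensembl identifiers stood for 48 of the 239 hosts, of which 35 were given a symbol from a gene name table. Replicates follow the labels.

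The 1341 circRNAs whose counts summed to 10 or more were tested with edgeR 4.0.16 in R 4.3.3 (TMM, robust quasi-likelihood fit, F test, Benjamini-Hochberg over all tested). Each standard error is the log2 fold change divided by the square root of F. In simulated counts of the same design, 21.3% of circRNAs changed by a log2 fold of 2 and 38.3% of those changed by 3 were called. Of 53 calls 2 were false, and 0 calls were made with none changed. The simulation did not require a read in Piglet-D30 replicate 1, which every listed exonic circRNA has. Its rates need not hold for the calls given here. Single values per library were compared by exact two-sided permutation tests (SciPy 1.17.1). Intervals cover counting error only, since reads carry no molecular identifiers.

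Named circRNAs were the 10 most abundant, up to 8 called per direction, the leader of the 6 hosts with most compact circRNAs, the 2 with most reads per list, and those at the span limit. Any other is said to be chosen after its values were seen or is given among counts. DESeq2 1.42.0, other scalings and filters, a replicate block and each library left out were alternatives. The 2 older forms of the fit and values without the most abundant circRNA were added after seeing the data.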

Additional observations from a re-analysis of the deposited data

How the results depend on the processing

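The number of compact circRNAs called was 14 and lay between 11 and 18 with other size factors, filters, scalings, forms of the fit, no fold change limit, exonic circRNAs only or DESeq2 (14, with 55 adjusted p not given by its own filter). With mapped reads as library size the calls higher in Adult-D210 went from 8 to 3. Leaving out 1 library gave 6 to 15 calls in all (4 to 8 higher, 2 to 7 lower, and 9 higher of 13 with Piglet-D30 replicate 1 out of the filter too), the fewest without Adult-D210 replicate 1. Fewer libraries enter these fits, and over all 1341 circRNAs tested those with 1 library left out called 37 to 78. With a replicate block 5 compact circRNAs were called, 3 higher and 2 lower (SLC38A10, ANKRD28, SLC9B1, CCNI and ENSSSCG00000011779), and 33 of all 1341 tested. The replicate numbers share only a number, as the deviations of same-numbered libraries correlated at 0.051, −0.015 and −0.031 and not every library correlated best with its own number.

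Of 238 values of the 14 called circRNAs under the alternatives, 180 kept the call, 58 kept the direction without the call and 0 reversed. CircRNA1191 of CDC42BPB, not called, had a log2 fold change of −0.27, which ran from −0.59 to 0.034 with 1 library left out and was positive only without Adult-D210 replicate 1 (adjusted p = 0.96, edgeR). Compact reads per 1000000 mapped reads were 27.8 lower in adults (−27.8, and −41.5 to −2.46 with 1 library left out), whereas their percent of exonic reads was 2.90 higher. The excess of mean SRPBM of compact over wide-span circRNAs was 0.514, with 1 library left out 0.491 to 0.551 (exact p = 0.063, the smallest for 5 libraries). It was 0.0256 for the median over circRNAs, 0.141 within hosts of both kinds and 0.269 without the most abundant circRNA, none past 0.05 by the exact test. Detection with 2 or 3 reads kept the direction of both means, but with 2 reads the ages overlapped (exact p = 0.3 over 6 libraries). Depth limits the tests to circRNAs of at least 10 reads.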
